A study of Mus musculus with 23 samples.

Results

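The genes described here repair double-strand breaks, interstrand crosslinks and mismatched bases in DNA, or signal that such damage is present. They were chosen by name from the array design: every spot whose gene name was among 33 repair genes entered, and 31 of the 33 were measured out of 21492 genes measured in all. Messenger RNA was profiled in scrapings of the small intestine of male adult C57BL/6J mice, with 1 array of 2 colours per mouse. The HF-Q mice (11) ate a high-fat diet that contained 0.33% of the plant flavonol quercetin by weight for 12 weeks, and the HF mice (12) ate the high-fat diet alone for the same time. Both diets followed 3 weeks on a normal-fat diet and ended with a fast of 2 to 4 hours, so no group without high-fat feeding stands in the comparison. The study itself left out another quercetin-fed mouse, which had an abscess. The Cy5 product of each mouse shared its array with a Cy3 product pooled from all mice, and every level below is therefore a log2 ratio to that pool, in which 0 is the pool and 1 is a doubling.

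A double-strand break is repaired either by end joining, which ligates the ends directly, or by homologous recombination, which copies the sister chromatid and is used mainly in S and G2 phase. The Mre11a, Rad50 and Nbn complex senses the break and starts resection, the kinases Atm and Atr signal it, and Brca2 with Palb2 acts on the resected strand before it invades the sister chromatid. Fanconi anaemia proteins unhook crosslinks met by replication forks, mismatch repair removes errors of the replicative polymerases, and translesion polymerases copy past damage that the forks cannot read. In the small intestine dividing cells sit in the crypts, below villi covered by enterocytes that no longer divide, and many repair genes are known to be transcribed with the replication genes. The study asked whether dietary quercetin is genotoxic, and the repair genes are therefore compared first between the diets and then with the proliferation of each mouse's tissue.

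Markers of the labelled tissue were present. The 8 enterocyte genes listed (Alpi, Anpep, Apoa4, Fabp2, Lct, Sis, Slc5a1 and Vil1) were each detected on all 23 arrays. A protocol field names liver as the source of RNA; of 6 hepatocyte genes, Apoh was detected on 23 arrays, Alb on 11, Hpx and Fgb on 2 each, and Mup3 and Ahsg on 0. Among the markers of other cells, the mean of 7 pancreatic acinar genes ran between -3.93 and 2.29 in HF-Q mice and between -3.82 and 1.83 in HF mice. The arrays lay on 3 slides with 7 or 8 arrays each and mice of both diets on every slide.

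Brca1 and Fancd2 could not be measured. The Brca1 probe was well above background on 1 array, of an HF-Q mouse, and the Fancd2 probe on 2, both of HF-Q mice, so no direction or fold is given for them. Of the 31 others, 28 were above background on all 23 arrays, with Palb2 on 20, Fancg on 18 and Chek1 on 15. None was saturated, none entered through only 1 of the diets, and no member value was missing. Since scrapings mix cell types, fewer cells of a type and less RNA per cell cannot be told apart in any value below.

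No difference between HF-Q and HF mice was called for any measured repair gene. None of the 31 passed the test (limma, Benjamini-Hochberg adjusted p under 0.05), as none of all 21492 genes did (0% of genes called), and the smallest adjusted p over all genes was 0.951. On the brightest probe of each gene, which stands for it here, the log2 fold changes of HF-Q over HF lay between -0.10 and 0.16, and the 95% intervals of all 31 lay between 0.850-fold and 1.25-fold. These bounds belong to ratios formed after an offset of 50 was added to both signals, which shrinks the ratios of dim spots. For Fancg the authors' log10 ratios gave a larger difference, printed below. Of the 31, 20 had a positive and 11 a negative difference, where 48.0% of all genes were on the positive side; their median was 0.026, against -0.0038 for all genes. For every one of the 31 the HF-Q and HF ranges overlapped, and the share of all genes with such overlap was not counted. At an unadjusted p under 0.05 stood 1 member, where 973 of all genes (4.53%) did. The dimmer of 2 measured probes of Rad18 showed a larger difference than any of these, 0.18 ± 0.065 (SE; unadjusted p = 0.00883, adjusted p = 0.953 over all probes in limma), against 0.093 ± 0.085 on the brighter one, and the mean of both differed by 0.14 (adjusted p = 0.961).

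That member was Fancg, a subunit of the Fanconi core complex (chromosome 4, 43016751 to 43017436 on build mm9). Its log2 ratio was lowest at -0.047, in the median 0.096 and highest at 0.37 in HF-Q mice, against -0.24, 0.028 and 0.14 in HF mice. The HF-Q values reached above the HF values, but 4 of 11 HF-Q mice lay below the HF median. The difference was 0.16 ± 0.063 (SE; unadjusted p = 0.0181, adjusted p = 0.951 in limma), and it was 0.25, 0.094 and 0.12 within slides 1, 2 and 3. On the authors' log10 ratios, turned to log2, the same difference was 0.46 (adjusted p = 0.961).

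Polh, the translesion polymerase that copies past ultraviolet lesions, had the next smallest p (chromosome 17, 46309069 to 46309128). Its levels ran from a lowest value of -0.013 through a median of 0.15 to a highest of 0.51 in HF-Q mice, and from 0.053 through 0.28 to 0.49 in HF mice. Most HF-Q mice (9 of 11) lay under the HF median, and the ranges covered each other almost fully. The log2 fold change was -0.10 ± 0.063 (SE; unadjusted p = 0.113, adjusted p = 0.951). Palb2, which joins Brca1 to Brca2, came next (chromosome 7, 129251027 to 129251086), with a lowest value of -0.12, a median of 0.16 and a highest of 0.39 in HF-Q mice, against -0.19, 0.038 and 0.43 in HF mice. Its difference was 0.11 ± 0.076 (SE; unadjusted p = 0.165, adjusted p = 0.951), and within the slides it took both signs, at 0.083, -0.10 and 0.31.

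**Figure D1:**
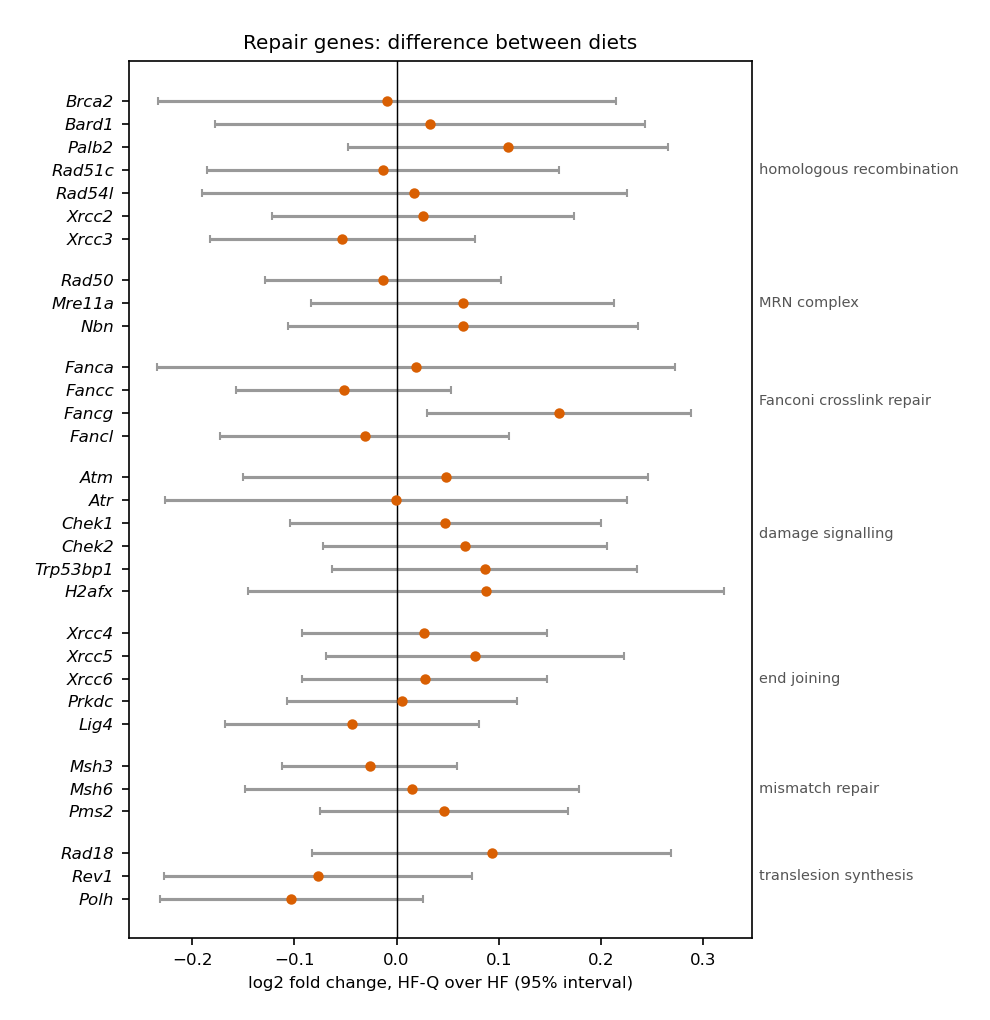
The difference between diets is plotted for each of the 31 measured repair genes, as the log2 fold change of HF-Q over HF (points) with its 95% interval (bars), with the genes grouped by role down the page. All points, from the brightest probe of each gene, lie between -0.10 and 0.16, and the interval of Fancg alone leaves out 0 before adjustment.

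By role, the differences between diets were as small. In homologous recombination 4 of 7 members were on the higher side in HF-Q, in the Mre11a complex 2 of 3, in crosslink repair 2 of 4, in damage signalling 5 of 6, in end joining 4 of 5, in mismatch repair 2 of 3 and in translesion synthesis 1 of 3, with no member of any role past the test. Atr, the kinase that answers stalled forks, had a difference of -0.00063 ± 0.11 (SE), and Brca2 one of -0.0091 ± 0.11. H2afx encodes the histone variant whose phosphorylated form marks breaks; its transcript differed by 0.088 ± 0.11, and the phosphorylation itself was not measured. T cell markers stood higher in HF-Q mice by 0.18 as a mean log2 ratio, and smooth muscle and pancreatic acinar markers lower, with differences of -0.27 and -0.60, in groups that overlapped; their part in the repair genes' differences was not tested.

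The mice differed in how strongly their samples expressed proliferation genes. The score used here is the mean log2 ratio of 34 measured genes of 36 listed, 17 of S phase (such as Mcm2, Pcna and Rrm2) and 17 of G2 phase and mitosis (such as Mki67, Top2a and Ccnb1), and it contains no repair gene of the set. It ran from -0.46 through a median of 0.17 to 0.28 in HF-Q mice, and from -0.49 through 0.065 to 0.41 in HF mice. The S phase part and the G2 and mitosis part of the score correlated over the 23 mice at r = 0.965. Means were 0.049 ± 0.25 in HF-Q mice (SD, n = 11) and -0.0036 ± 0.29 in HF mice (SD, n = 12), a difference of 0.052 that did not pass (permutation test, two-sided, 100000 resamples, p = 0.642). Within the slides the difference was 0.063, 0.0085 and 0.075.

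The mice were not spread evenly along the score. Its widest gap lay between -0.050 and 0.11, with 9 mice below and 14 above. All 6 mice whose labels carry replicate numbers 1 to 3, of both diets, were among the 7 with the lowest scores; the labels do not say what the numbers stand for, and whether they mark an order of dissection or extraction was not tested.

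Of the 31 measured repair genes, 17 rose with the score (limma slope, adjusted p under 0.05), where 18.8% of the 21458 genes outside the score rose with it. None fell with the score, where 13.7% of all genes did, and 14 did not pass, 7 with a slope above 0 and 7 below. The median slope of the 31 was 0.31 log2 units per log2 unit of the score, against -0.032 for all genes. That background depends on how the arrays are centred: the median of all genes was 0.15 with median centring of the arrays and -0.13 in the authors' log2 table, and the share of called genes with a positive slope was 57.8% as reported, 95.5% with median centring and 44.8% in the authors' table. With median centring 21 members rose and 1 fell (29% and 1.35% of all genes), and 15 rose and 2 fell in the authors' table (14.9% and 18.4%). Of the 31 members, 24 as reported, 24 with median centring and 25 in the authors' table lay above the median slope of all genes. The 17 were among them each time, which their choice by a positive slope in these data favours.

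**Figure D2:**
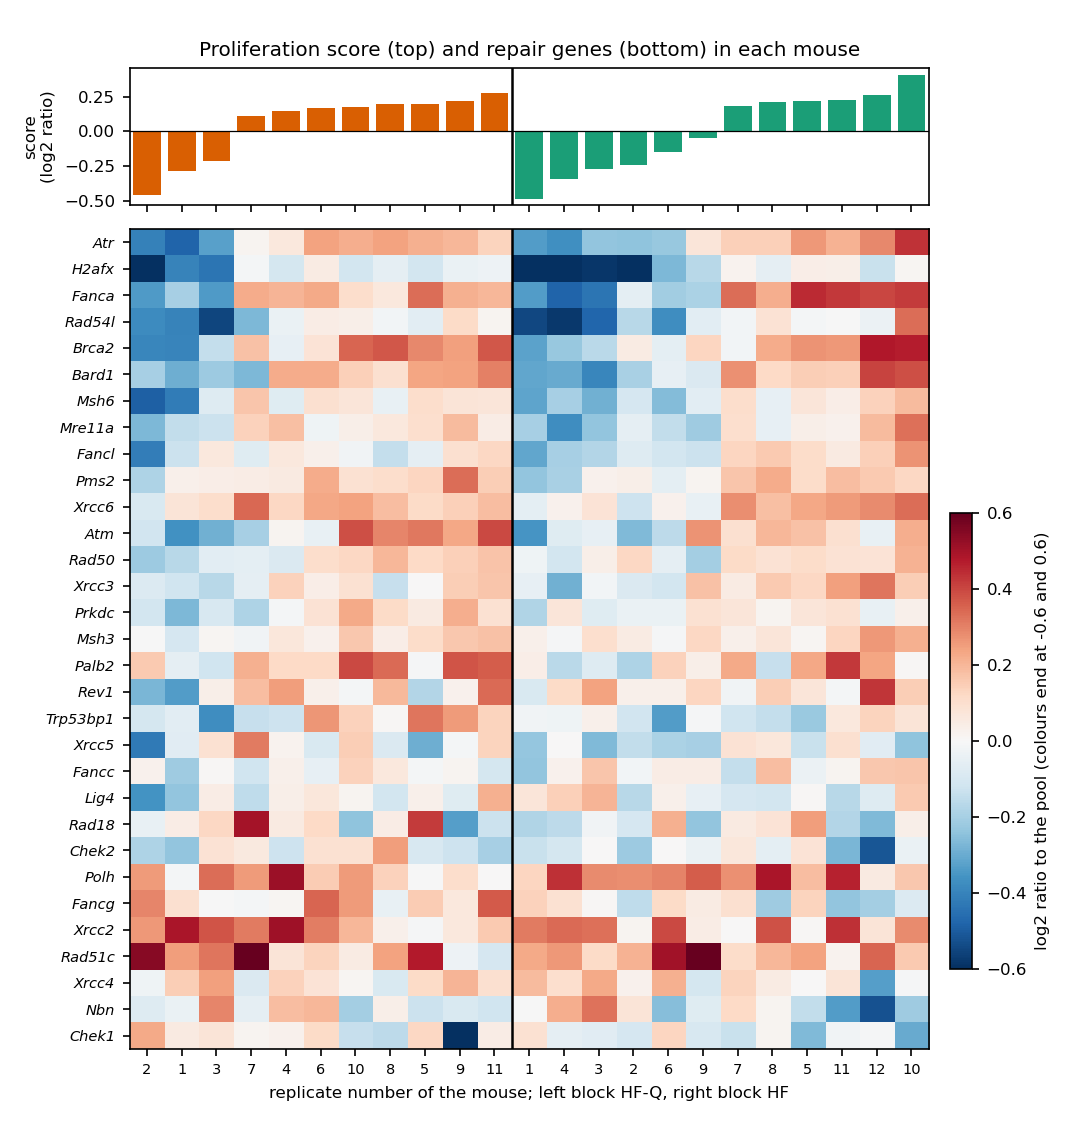
Each column is a mouse, HF-Q on the left and HF on the right, ordered within its diet by the proliferation score, whose log2 ratio is drawn as bars on top. Colours give the log2 ratio of each repair gene to the pool, with genes ordered from the most positive to the most negative r with the score; the upper rows turn from blue to red along both diets, and the lower rows do not.

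Damage signalling held both genes with the closest relation. Atr (chromosome 9, 95851956 to 95852015) ran from -0.48 through a median of 0.13 to 0.24 in HF-Q mice, and from -0.37 through 0.11 to 0.43 in HF mice. The low values belonged to low-scoring mice of both diets, so that the diets overlapped while the score ordered the mice. Its slope was 0.97 ± 0.076 (SE; adjusted p = 7.14e-10), with r = 0.952 and rho = 0.860 over the 23 mice (permutation p = 1e-05 for each, the smallest that 100000 permutations give; adjusted p = 0.000167 and 0.000296), and r was 0.955 without the 2 mice farthest from the median score. H2afx (chromosome 9, 44144033 to 44144092) had a lowest value of -0.72, a median of -0.11 and a highest of 0.047 in HF-Q mice, against -0.91, -0.15 and 0.039 in HF mice. It spanned 1.94-fold between the lowest and the highest mouse, the widest range of the 31. Its slope was 1.01 ± 0.084 (adjusted p = 2.25e-09; r = 0.941, rho = 0.771).

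Atm, the kinase that answers double-strand breaks, also rose with the score, with a slope of 0.65 ± 0.13 (SE; adjusted p = 0.000454; r = 0.728). Its second probe, at another genome position, gave a slope of 0.26 ± 0.070. The checkpoint kinases downstream of Atm and Atr did not pass. Chek2 (chromosome 5, 111294547 to 111294606) had a lowest value of -0.24, a median of -0.097 and a highest of 0.25 in HF-Q mice, and -0.52, -0.050 and 0.083 in HF mice. High and low Chek2 values occurred at both ends of the score, and r was 0.0997 (rho = -0.011), with a slope of 0.061 ± 0.13 (adjusted p = 0.748). Chek1, measured above background on 15 arrays, had a slope of -0.29 ± 0.13 (adjusted p = 0.0875; r = -0.431), and passed with a slope of -0.28 when arrays were centred on their medians (adjusted p = 0.0483). Trp53bp1, which favours end joining over resection, had a slope of 0.27 ± 0.13 (adjusted p = 0.113). With median centring, where 29% of all genes rose, it passed with a slope of 0.39 (adjusted p = 0.0150).

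In homologous recombination 5 of 7 measured members rose with the score. Rad54l, a motor protein that works in strand invasion (chromosome 4, 115769618 to 115769677), ran from -0.55 through -0.039 to 0.12 in HF-Q mice, and from -0.58 through -0.051 to 0.34 in HF mice. The highest value belonged to the HF mouse with the highest score. The slope was 0.84 ± 0.093 (SE; adjusted p = 1.84e-07), with r = 0.898 and rho = 0.840. Brca2 (chromosome 5, 151372225 to 151372284) ran from -0.40 through 0.17 to 0.37 in HF-Q mice, and from -0.32 through 0.090 to 0.48 in HF mice, with a slope of 0.91 ± 0.10 (adjusted p = 1.75e-07; r = 0.895, rho = 0.895). Without the 2 farthest mice r was 0.897 for Rad54l and 0.856 for Brca2.

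Bard1, the obligate partner of Brca1, had a slope of 0.84 ± 0.099 (SE; r = 0.886) on its brighter probe and of -0.029 ± 0.13 on its other measured probe. The mean of its probes still passed, with a slope of 0.43 (adjusted p = 0.000578). Xrcc3 rose with a slope of 0.39 ± 0.092 (adjusted p = 0.00215), and Palb2 with one of 0.38 ± 0.13 (adjusted p = 0.0257). Palb2 was the least stable of these: without HF replicate 4 its adjusted p was 0.0596, and its slope was -0.35 among the mice above the gap in the score and -0.083 among those below. The other members of this role did not pass, with slopes of -0.26 ± 0.15 for Rad51c and -0.20 ± 0.13 for Xrcc2; in the authors' table Rad51c had a slope of -0.40 and passed (adjusted p = 0.0150).

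Among the promoters of the set, 4 are shown because they carry motifs through which replication and mitosis genes are commonly switched on, in 3 genes that rose with the score and in Chek2, which did not pass. Each is the 250 bases before the annotated start, from RefSeq on assembly GRCm38.p6, 5′ to 3′ on the gene's own strand, with motif letters in capitals. Brca2 lies at chr5:150522371-150522620 (+), Bard1 at chr1:71102973-71103222 (-), Fanca at chr8:123318577-123318826 (-) and Chek2 at chr5:110839733-110839982 (+).
Brca2: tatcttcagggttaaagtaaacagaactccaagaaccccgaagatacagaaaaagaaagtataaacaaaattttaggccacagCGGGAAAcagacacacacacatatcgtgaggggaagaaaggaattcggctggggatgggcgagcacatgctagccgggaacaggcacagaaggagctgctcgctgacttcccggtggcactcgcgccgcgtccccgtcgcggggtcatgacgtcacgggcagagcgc
Bard1: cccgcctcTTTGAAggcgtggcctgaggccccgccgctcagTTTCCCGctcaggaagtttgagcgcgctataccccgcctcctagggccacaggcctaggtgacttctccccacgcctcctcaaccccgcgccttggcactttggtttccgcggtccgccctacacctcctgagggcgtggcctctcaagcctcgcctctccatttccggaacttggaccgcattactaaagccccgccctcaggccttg
Fanca: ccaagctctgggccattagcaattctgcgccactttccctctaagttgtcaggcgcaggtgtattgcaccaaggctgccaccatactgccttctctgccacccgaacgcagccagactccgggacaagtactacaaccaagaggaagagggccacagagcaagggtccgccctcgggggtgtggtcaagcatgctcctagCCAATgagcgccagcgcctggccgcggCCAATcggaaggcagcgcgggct
Chek2: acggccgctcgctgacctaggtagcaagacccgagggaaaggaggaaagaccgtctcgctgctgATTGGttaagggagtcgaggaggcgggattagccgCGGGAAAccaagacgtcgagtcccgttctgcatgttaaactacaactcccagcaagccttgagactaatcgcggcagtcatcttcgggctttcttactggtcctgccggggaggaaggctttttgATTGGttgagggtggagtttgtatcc
The motifs searched were the E2F element written TTTCCCG, its variant TTTGGCG and its other variant TTTCGCG, the cell cycle homology element (CHR) written TTTGAA, and the NF-Y box written CCAAT, all on both strands. Brca2 held an E2F motif at -167 from the start, on the reverse strand. In Bard1 an E2F motif lay at -209 and a CHR at -242, and Fanca held NF-Y motifs at -50 and -23. Chek2 held an E2F motif at -151 and NF-Y motifs at -186 and -26, on the reverse strand. Over the 27 members with a promoter in the table, 6 held an E2F motif, 1 a CHR and 11 an NF-Y motif, where 4.67%, 16.3% and 34.5% of 27025 promoters did. Of the 14 that rose with the score and have a promoter, 4 held E2F and 7 NF-Y, against 2 and 3 of the 12 that did not pass. Atr, the member with the largest r (0.952), held none of the motifs searched, and neither did Fancl and Palb2, which also rose. Among those that did not pass, Chek1, Lig4, Polh, Rad18, Rad51c, Rev1, Trp53bp1 and Xrcc4 held none. Matches are letters in a window and no evidence of binding.

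Of the Mre11a complex, 2 of 3 subunits rose with the score. Rad50, its ATPase (chromosome 11, 53463096 to 53463155), ran from -0.22 through 0.11 to 0.20 in HF-Q mice, and from -0.20 through 0.086 to 0.21 in HF mice. The slope was 0.34 ± 0.081 (SE; adjusted p = 0.00234; r = 0.705, rho = 0.689), but a second probe of Rad50 at another genome position had a slope of -0.16 ± 0.11. With the mean of its probes Rad50 did not pass. Mre11a, the nuclease, had a slope of 0.57 ± 0.081 (adjusted p = 7.72e-06; r = 0.856). Nbn, which recruits Atm, went the other way without passing in limma (slope -0.32 ± 0.15, adjusted p = 0.0974; 0.028 with median centring), while its ranks gave rho = -0.561 (permutation, adjusted p = 0.0267) and the authors' table a slope of -0.47 (adjusted p = 0.0476). The slopes of the 3 subunits took both signs.

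In the Fanconi pathway, Fanca had the steepest slope of all 31 (chromosome 8, 125792210 to 125792269). Its levels ran from -0.34 through 0.20 to 0.34 in HF-Q mice, and from -0.48 through 0.080 to 0.45 in HF mice. Low-scoring mice of both diets lay below 0 and high-scoring ones above it, and the slope was 1.06 ± 0.10 (SE; adjusted p = 2.77e-08), with r = 0.914 and rho = 0.825. Fancl, the ubiquitin ligase of the core complex, rose with a slope of 0.51 ± 0.081 (adjusted p = 2.53e-05), and its second probe gave 0.56 ± 0.082. Other core subunits did not pass: Fancc had a slope of 0.14 ± 0.094, which was -0.041 in the authors' table, and Fancg one of -0.11 ± 0.13, which was 0.0098 with median centring.

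In end joining 2 of 5 members rose with the score, both part of the DNA-dependent protein kinase. Xrcc6, a subunit of the Ku ring that binds broken ends, had a slope of 0.41 ± 0.073 (SE; adjusted p = 0.000110; r = 0.815), and Prkdc, the catalytic subunit of the kinase, one of 0.28 ± 0.087 (adjusted p = 0.0158; r = 0.598). The other Ku subunit, Xrcc5, had a slope of 0.26 ± 0.13 that did not pass (adjusted p = 0.128), although it passed without HF replicate 10 (0.34, adjusted p = 0.0485). Xrcc4, the scaffold of the ligase (chromosome 13, 89988731 to 89988790), ran from -0.092 through 0.094 to 0.25 in HF-Q mice, and from -0.33 through 0.063 to 0.23 in HF mice. Its slope was -0.17 ± 0.10 (adjusted p = 0.209), and 0.14 with median centring. Lig4, the ligase itself, had a slope of 0.084 ± 0.11 (adjusted p = 0.604). With median centring, where 29% of all genes rose, Xrcc5 passed with a slope of 0.49 (adjusted p = 0.00337) and Lig4 with one of 0.38 (adjusted p = 0.0269).

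All 3 mismatch repair members rose with the score. Msh6, which finds single mismatches, had a slope of 0.64 ± 0.080 (SE; adjusted p = 1.19e-06; r = 0.884), and Pms2, a mismatch repair endonuclease, one of 0.43 ± 0.072 (adjusted p = 5.20e-05; r = 0.834). Msh3, which finds longer loops (chromosome 13, 92981875 to 92981934), ran from -0.10 through 0.041 to 0.17 in HF-Q mice, and from -0.0086 through 0.062 to 0.26 in HF mice. This was the narrowest range of the 31, at 1.29-fold between the lowest and the highest mouse. Its slope of 0.19 ± 0.067 passed narrowly (adjusted p = 0.0306), did not pass without HF replicate 10 (adjusted p = 0.0694), without HF replicate 12 (0.0502) or without HF-Q replicate 1 (0.0631), and was -0.13 ± 0.12 and -0.29 ± 0.12 on the other probes of the gene.

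No translesion gene passed. Rad18, the ligase that marks PCNA at stalled forks (chromosome 6, 112570622 to 112570681), ran from -0.33 through 0.047 to 0.50 in HF-Q mice, and from -0.27 through -0.061 to 0.25 in HF mice, with r = 0.118 and a slope of 0.094 ± 0.17 (SE; adjusted p = 0.695). Polh had r = -0.134 and a slope of -0.078 ± 0.12 (adjusted p = 0.662). These 2 and Chek2 had the smallest absolute r of the 31 and scattered at every score. Rev1, which inserts C opposite damaged bases and holds the other translesion polymerases, had a slope of 0.31 ± 0.13 (adjusted p = 0.0645). It passed when HF replicate 3 (adjusted p = 0.0301), HF replicate 4 (0.0483) or HF-Q replicate 5 (0.0318) was left out. With median centring, where 29% of all genes rose, Rev1 passed too (slope 0.38, adjusted p = 0.0192). So it did with the S phase part of the score (0.42, adjusted p = 0.0318), without background subtraction, on the authors' log10 ratios and with diet as a covariate. In the authors' log2 table it did not pass (0.24, adjusted p = 0.220).

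**Figure D3:**
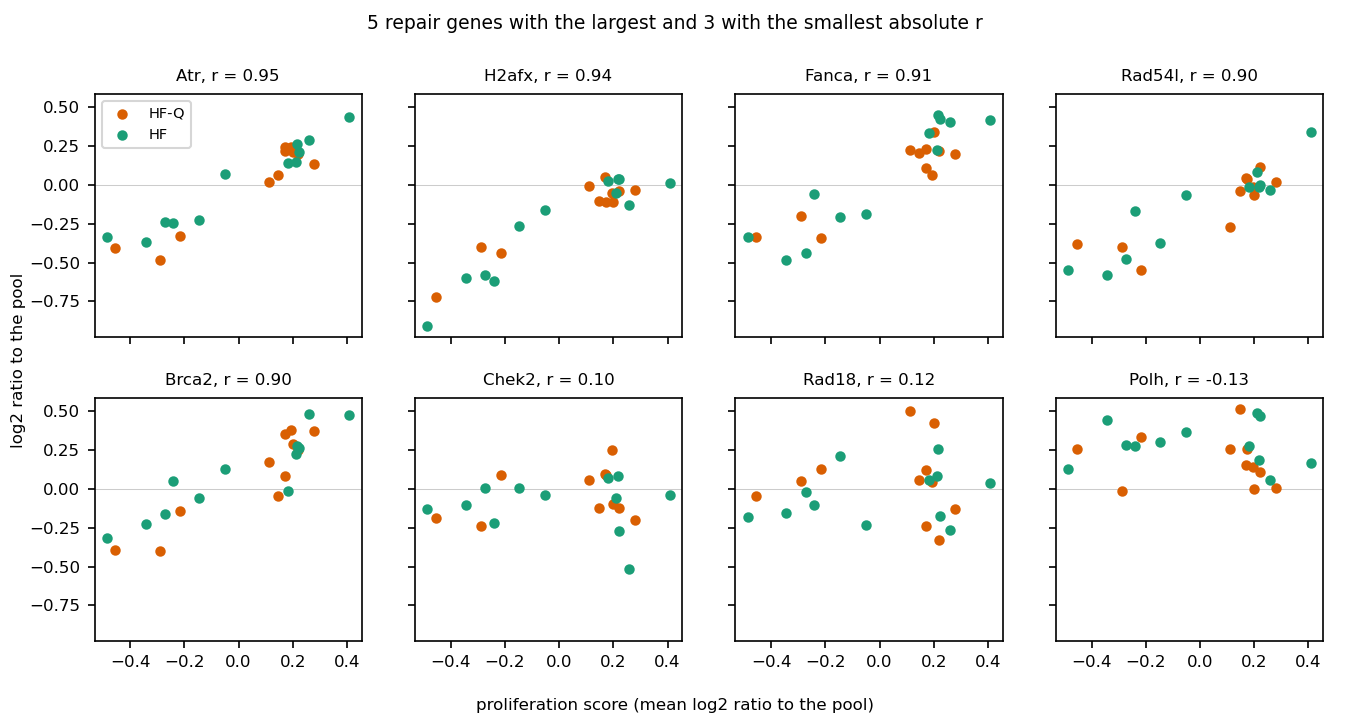
The log2 ratio to the pool of 8 repair genes is plotted against the proliferation score, with a point for each HF-Q and each HF mouse. Atr, H2afx, Fanca, Rad54l and Brca2 have r of 0.895 or more, whereas Chek2, Rad18 and Polh scatter at every score, with r of 0.0997, 0.118 and -0.134.

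Each of the 17 genes had a positive slope among the HF-Q mice alone and among the HF mice alone. They were chosen by their slope over these same mice, so the signs in parts of them are no separate support. Of the 17, 10 passed in HF-Q mice (8.35% of all genes rose there) and 13 in HF mice (12.1%), and no other member did. Among the members that did not pass over all mice, Chek2, Fancg, Lig4 and Rad18 had slopes of opposite sign in HF-Q and HF mice. The slope of Atr was 1.07 in HF-Q and 0.93 in HF mice, that of H2afx 0.92 and 1.06, and that of Fanca 0.90 and 1.17. A test of the difference between the diets' slopes (limma, interaction) called 0 of the 31, as it called none of all genes (0%), with a smallest adjusted p over all genes of 0.517. At an unadjusted p under 0.05 stood 1 member and 5.11% of all genes: Lig4, with a slope of 0.46 in HF-Q mice and -0.15 in HF mice (unadjusted p = 0.00757, adjusted p = 0.874).

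**Figure D4:**
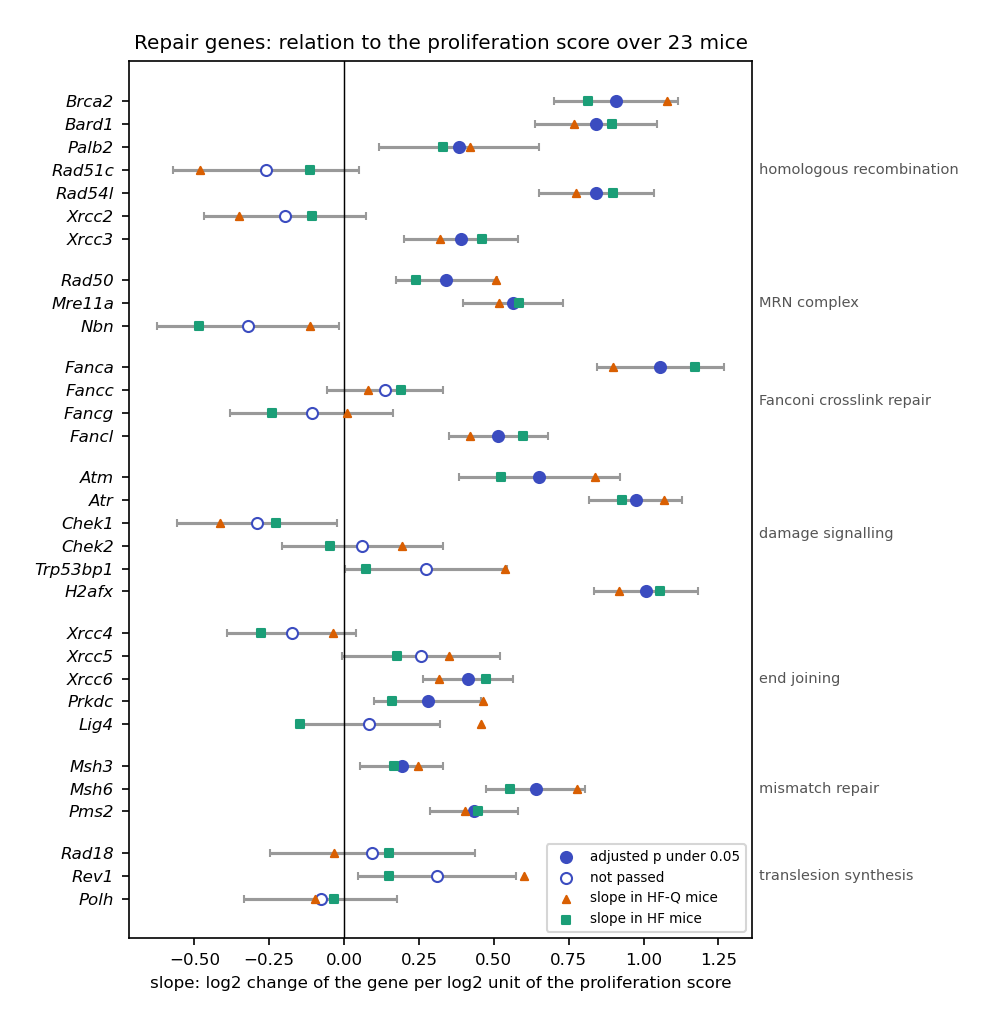
Slopes on the proliferation score over the 23 mice are drawn for each repair gene (circles, filled where the adjusted p is under 0.05) with 95% intervals, beside the slopes within HF-Q mice (triangles) and within HF mice (squares). The 17 filled genes, chosen by their slope over these same mice, lie right of 0 in both diets, and open circles stand on both sides of 0.

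Each of the 17 also had a positive slope within each of the 3 slides. Their choice over all mice favours positive signs in any part of them, so these signs and those below are no separate support. Within the slides 6, 5 and 7 members passed with 7 or 8 mice per slide (2.06%, 1.60% and 6.13% of all genes). Atr, Fanca, H2afx and Rad54l passed in all 3 slides, and the share of all genes that did so was not counted. With the slide as a block 17 passed (18.9% of all genes). The count was smaller in narrower sets of mice, which were chosen after seeing the data. Among the 15 mice with replicate numbers from 5 upward, 3 members passed (Atr, Fanca and Rad54l; 0.704% of all genes) and all 17 slopes were positive. On either side of the gap in the score none passed, as none of all genes did (0%), and 16 of the 17 slopes were positive on both sides. Slopes above and below the gap were 1.10 and 0.83 for Atr, 0.79 and 0.44 for Fanca, and 0.12 and 1.53 for H2afx. These sets held 14 mice above the gap and 9 below it, each over a narrower range of the score, and the lack of calls in them does not show that the slopes differed from those over all mice. Score and repair genes were read from the same arrays, so that a shift common to an array would enter both.

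Markers of cell types moved with the score too. The mean of the 5 crypt base stem markers (Lgr5, Olfm4, Ascl2, Smoc2 and Axin2), all above background on all arrays, ran from -0.89 through 0.18 to 0.42 in HF-Q mice and from -0.56 through 0.12 to 0.50 in HF mice, and correlated with the score at r = 0.938 (rho = 0.863; permutation, adjusted p = 8e-05 for each over 8 lists). The 8 enterocyte markers went the other way (r = -0.693, adjusted p = 0.000507), between -0.21 and 0.40 in HF-Q mice and between -0.13 and 0.63 in HF mice. The 6 smooth muscle markers went with the score (r = 0.736, adjusted p = 0.000507), between -1.62 and 0.89 in HF-Q mice and between -0.86 and 1.19 in HF mice. Without the 2 mice farthest from the median score, r was 0.925, -0.593 and 0.658 for the stem, enterocyte and smooth muscle lists. B and plasma cell markers, 6 of 7 measured, had r = 0.576 (adjusted p = 0.00710) but rho = 0.385 (adjusted p = 0.140), and r = 0.377 without those 2 mice. Acinar (r = -0.302), T cell (-0.158), germinal centre B cell (-0.077, 3 of 5 measured, with Gcet2 above background on 1 array) and hepatocyte markers (-0.071, 2 of 6 measured) did not pass.

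**Figure D5:**
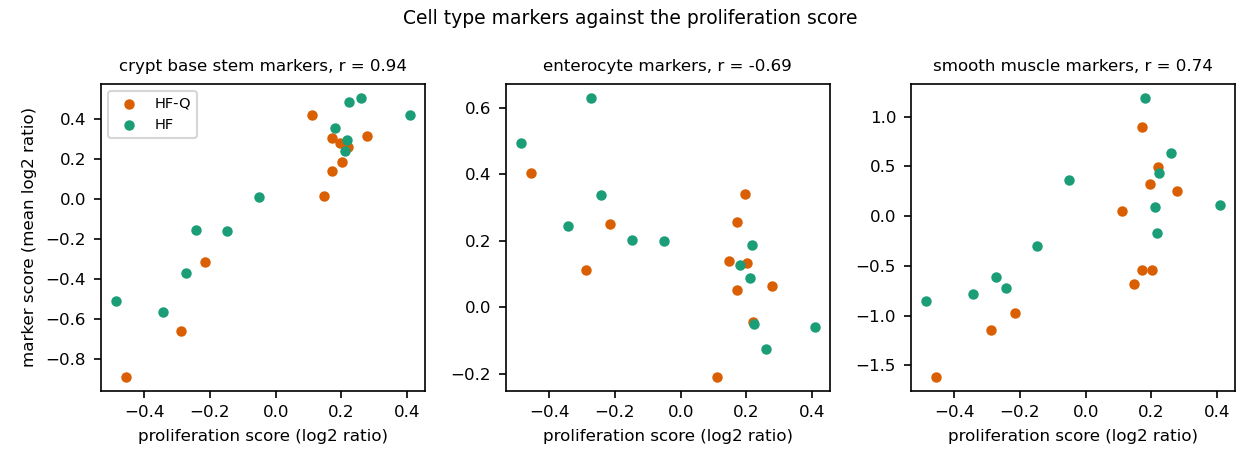
The mean log2 ratio of crypt base stem, enterocyte and smooth muscle markers is plotted against the proliferation score, with a point for each HF-Q and each HF mouse. Stem and smooth muscle markers are higher in high-scoring mice (r = 0.938 and 0.736), and enterocyte markers are lower (r = -0.693), in both diets.

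When enterocyte, smooth muscle and acinar scores were added to the fit as covariates, 12 members still rose with the proliferation score, where 4.19% of all genes did. All 12 were among the 17; Palb2, Xrcc3, Xrcc6, Prkdc and Msh3 no longer passed. The slope of Atr was then 1.03, that of H2afx 0.92 and that of Fanca 1.05. The part of the stem markers in the repair genes' relation was not tested.

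Other genes of the same pathways were fitted in the same way. Of 61 listed, 55 were measured; 30 rose with the score, 1 fell and 24 did not pass, where 18.8% of all genes rose and 13.7% fell. Among the closest were Exo1, the nuclease of resection and mismatch repair (slope 1.34 ± 0.089 SE, adjusted p = 5.15e-11) and Rad51ap1, a cofactor of recombination (1.07 ± 0.079, adjusted p = 3.16e-10). Exo1 ran from -0.76 through 0.19 to 0.43 in HF-Q mice, and from -0.73 through 0.018 to 0.43 in HF mice. The gene that fell was Ube2b, a ubiquitin-conjugating enzyme that works with Rad18 (slope -0.36 ± 0.095, adjusted p = 0.00527). By role, leaving out mismatch repair, which is not reported here for these other genes, 11 of 13 other signalling genes, 8 of 18 recombination genes, 4 of 8 crosslink genes, 2 of 7 end joining genes and 1 of 5 translesion genes rose.

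Between the diets none of the 55 passed (limma, adjusted p under 0.05), as none of all genes did (0%). On the higher side in HF-Q were 30 and on the lower 25, where 48% of all genes were higher, and their median log2 fold change was 0.0072. At an unadjusted p under 0.05 stood 2, where 4.53% of all genes did. They were Polk, a translesion polymerase (log2 fold change 0.15 ± 0.061 SE, p = 0.0191), and Fancm, the helicase that anchors the core complex at forks (-0.13 ± 0.060, p = 0.0392). Polk ran from -0.21 through -0.014 to 0.28 in HF-Q mice, and from -0.38 through -0.18 to 0.16 in HF mice. Rbbp8, which starts resection with the Mre11a complex, came next (-0.065 ± 0.041, p = 0.125). All 3 had an adjusted p of 0.951, and their groups overlapped.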

How the data were processed

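Per the labels' protocols, cRNA was made from 200 ng of RNA of each mouse in 2 dyes. A mouse's Cy5 product shared an array with the pooled Cy3 products of all mice, and dyes were not swapped. Agilent Feature Extraction 10.7.3.1 quantified the spots, per the submitters' processing notes and per the file headers; the deposited spot and background columns are intensity values on a linear scale, not normalized between arrays. The authors' log10 ratios (Cy5 over Cy3) in those files, and a deposited table of the authors' log2 values with no stated normalization, served as alternatives. Each column of that table has a median of 9.11 and correlated with log2 Cy5 across spots at 0.996 to 0.999. Its deviations from each probe's mean correlated with those of the ratios at 0.86 to 0.96. Whether the pool's signal entered that table was not tested.

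Ratios came from limma 3.58.1 under R 4.3.3: normexp background correction with an offset of 50, loess within each array with control spots at weight 0, outlier spots left out and spots of a probe averaged. Probes had to stand well above background in Cy5 on 50% or more of either diet's arrays (29249 of 55681 did), and the brightest kept probe stood for a gene. HF-Q against HF, the slope on the proliferation score and their interaction were fitted with lmFit and eBayes over all genes, two-sided, with Benjamini-Hochberg adjustment over all of them and a threshold of 0.05. Pearson r and Spearman rho had permutation p-values (100000 resamples, numpy 2.4.6 and scipy 1.17.1), adjusted over all genes. The fits were checked on simulated data. The number of arrays limits the precision.

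Probe positions are those of the scanner files, on build mm9; 30 of the 31 measured members were matched to RefSeq by accession and 1 by symbol, and exon or intron positions were not analysed here. The members and all lists were chosen with earlier results of these data known. Genes described in full were those with the 3 smallest p between diets, the 5 largest and 3 smallest absolute r, and 1 of each role not yet named. Other pathway genes were named for the 3 smallest p of either fit, of which 1 is not reported here, and Ube2b was added after its value was seen. Alternatives were other centring, background, ratios, filters, probe rules, slide and replicate blocks, covariates, either part of the score, each diet alone and each mouse left out; 3 subsets of mice were added after seeing the data.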

Additional observations from a re-analysis of the deposited data

How the results depend on the processing

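No member passed between HF-Q and HF under any of 13 alternatives or with any mouse left out (0 in each of 23 refits), and the test of the diets' slopes called 0 in its alternatives. The count of members that rose with the proliferation score (17) stayed between 15 and 21 under other centring, backgrounds, ratios, filters, probe rules, parts of the score, diet as a covariate and the slide as a block. Under these settings 11% (no filter on dim probes) to 29% (median centring) of all genes rose. With a mouse left out the count was between 16 and 18, and the share of all genes was not counted. It was 21 with median centring (29% of all genes) and 17 on the authors' log10 ratios (18.5%), and Chek1 fell in both (1.35% and 13.7% of all genes fell). It was 15 in the authors' log2 table (14.9%), where Nbn and Rad51c fell (18.4%), and 12 with cell type scores (4.19%). It was 6, 5 and 7 within slides 1, 2 and 3 (2.06%, 1.60% and 6.13%), and 10 in HF-Q mice alone (8.35%). Among mice numbered from 5 upward it was 3 (0.704%), and 0 above and 0 below the gap in the score (0% each). These were settings with fewer mice, and the last 3 were added after seeing the data. Slopes of called members turned for Msh3 with the mean of its probes (-0.079), for Prkdc with the replicate block (-0.0053), and for Palb2 above (-0.35) and below (-0.083) the gap; the cause was not tested. The difference in the score between HF-Q and HF ran from 0.0082 to 0.10 with a mouse left out and was 0.12 with median centring.

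With the replicate number as a block, 5 members passed (Fanca, H2afx, Mre11a, Pms2 and Rad54l; 1.88% of all genes). The labels do not say whether the numbers pair the mice. Over all genes, deviations of same-numbered mice from their diet means correlated between -0.345 and 0.391, over 0.1 in 5 of 11 pairs. Of the HF-Q mice, 1 correlated best with its own number. In the proliferation score, all 6 mice numbered 1 to 3, of both diets, were among the 7 lowest. Whether the numbers stand for pairs was not tested further. Dim signal limits Brca1, Fancd2 and, in part, Chek1, Fancg and Palb2.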
